A study of Mus musculus with 4 samples.

Results

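The maturation of the dorsal telencephalic midline under stabilised beta-catenin was followed by setting cells of the E14.5 gof library against cells of the E11.5 gof library. Members were cells with at least 1000 detected genes and at most 10% mitochondrial UMIs, outside 2 classes of non-neural cell: those with 5 or more UMIs of Col1a1, Col1a2 and Col3a1 together, and those with 2% or more of UMIs in alpha- and beta-globin genes. This left 11321 cells, 5877 at E11.5 and 5444 at E14.5, among 24187 cells that met the same limits in the 4 libraries of the series and 30362 barcodes in all. The tissue was microdissected around the cortical hem of male mouse embryos, with the Cajal-Retzius cells and part of the hippocampal primordium, and each library pooled 5 embryos at the younger age or 3 at the older. All embryos carried Lmx1aCre and Ai9, a reporter that makes tdTomato once Cre has acted. The gof embryos (Lmx1aCre::Ai9::b-cat gof) carried in addition a beta-catenin allele that the Cre turns into a stabilised form, and the control embryos (Lmx1aCre::Ai9) did not. Because Lmx1a is restricted to the hem, choroid plexus and their offspring within this tissue, the allele is not expected in every dissected cell, and the reporter is the only label of the cells that met the Cre.

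Canonical Wnt signalling works through beta-catenin, which is broken down in unstimulated cells and, when it is spared, enters the nucleus and activates target genes with TCF and LEF factors. Several of these targets encode inhibitors that feed back on the pathway. The cortical hem is a Wnt- and BMP-secreting centre at the edge of the cortex. It instructs the neighbouring cortex to become hippocampus, gives rise to Cajal-Retzius neurons, and lies beside the epithelium that becomes choroid plexus. Between the ages sampled, neuroepithelial cells of the cortex become radial glia, begin to make projection neurons, and lose a set of genes of early progenitors.

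The kept cells of the E11.5 and E14.5 gof libraries held 41260987 and 89194879 UMIs, at median depths of 5553 and 14305.5 UMIs a cell, and the control libraries 62332164 and 109946841 UMIs, with medians of 8263.5 and 13165. The collagen and haemoglobin limits removed 22.6% of otherwise acceptable cells from the E11.5 gof library and 2.30% from the E14.5 gof library. The 2 gof libraries shared 8 kept barcodes. Summed UMIs were divided by the library total and are given as CPM, and a change is the log2 ratio of E14.5 to E11.5 after adding 1 CPM, which understates changes of weakly expressed genes. A gene was called higher or lower at E14.5 when it differed by at least 2-fold, its exact 95% Poisson intervals did not touch, and it reached 10 CPM in either library. These verbs below refer to such calls. With 1 library a side there is no replicate check, no p-value was possible, and the intervals cover counting error only. Age, litter, dissection and library preparation cannot be told apart in any of these comparisons.

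CPM values depend on what else is in the library. Ribosomal protein genes took 25.8% of UMIs in the E11.5 gof library and 16.8% in the E14.5 gof library (25.7% and 13.4% in controls), and the median change over all measured genes was 0.54 in gof and 0.60 in control. Changes are therefore to be read against these medians. With TMM scaling the medians were 0.19 and 0.06, and the share of gof calls that were in the higher direction was 63.2%, where library totals gave 85.2%.

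From E11.5 to E14.5, the gof midline went through most of the large changes seen in the control midline. Of 9534 measured genes, 2464 (25.8%) rose and 429 (4.5%) fell in gof, where 2890 of 9677 (29.9%) rose and 303 (3.13%) fell in control. Of the 3193 genes called in control, 2053 (64.3%) were called in the same direction in gof, which is referred to as a step made. A step was counted as missed when the gof change was not called in that direction and lay at least 1 log2 unit short of the control change, which held for 191 genes (5.98%). Of these, 173 were genes that rose in control and 18 genes that fell. For 96 of the 191, the gof level was under 10 CPM at both ages, and for 28 the gof change was itself 2-fold or more in size but at such low levels or with touching intervals. Another 159 of 9956 genes (1.6%) were called in gof only by the same margin. A further 947 genes called in control but not in gof, and 679 called in gof but not in control, fell between these classes. In all, 979 gof changes lay within 0.1 log2 units of the 2-fold limit. Across the 9255 genes measured in both genotypes, gof and control changes had a Pearson correlation of 0.87, given as a description since genes are not replicates.

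**Figure D1:**
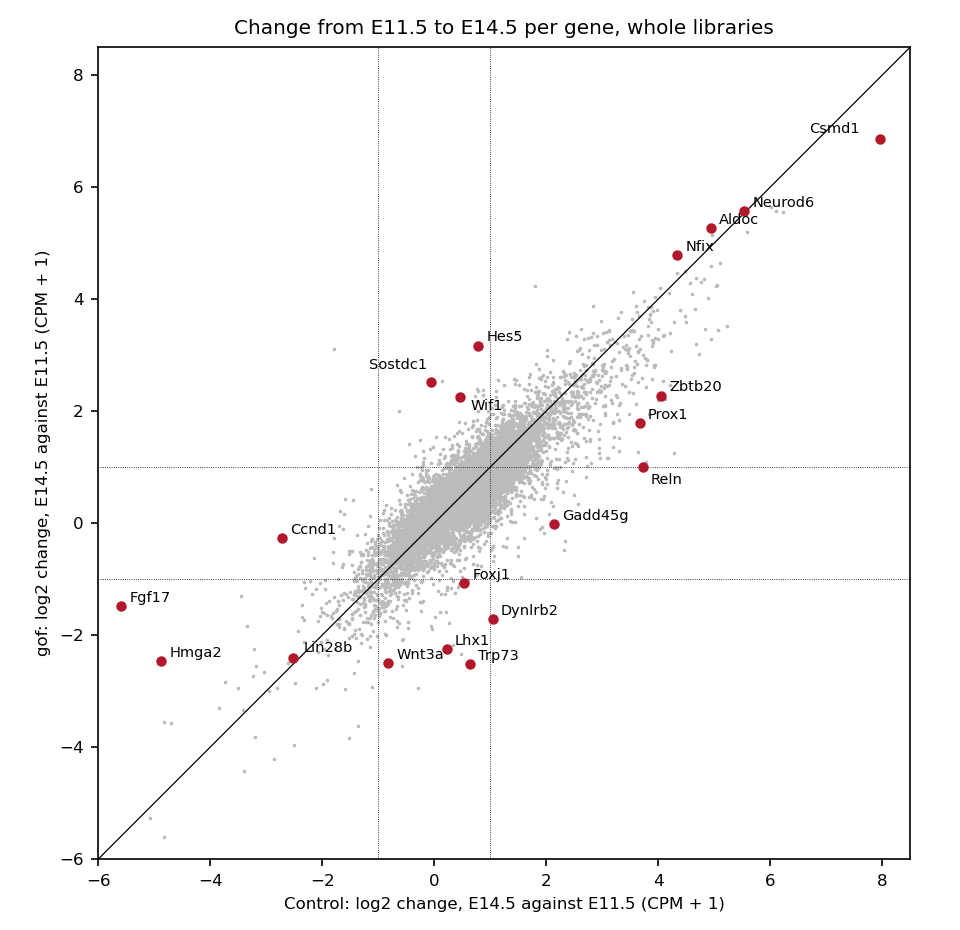
Log2 change from E11.5 to E14.5 in control (horizontal axis) and gof (vertical axis) whole libraries, 1 point per gene with at least 10 CPM in each genotype; the solid line marks equal change, dotted lines 2-fold changes, and red points are genes described in the text. Neurod6 (5.54 in control, 5.56 in gof) lies on the line, Reln and Gadd45g lie below it on the right, and Fgf17, Hmga2 and Ccnd1 lie above it on the left.

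Csmd1, Neurod6 and Nfix were among the 12 largest increases in the gof midline. Csmd1, which encodes a large membrane protein with complement-control domains, was at 3.73 CPM in the E11.5 gof library and 545 CPM at E14.5, and at 3.19 and 1044 CPM in control. Neurod6, a transcription factor of young pallial projection neurons, rose from 4.85 to 275 CPM in gof and from 2.84 to 177 CPM in control. Nfix, a nuclear factor I gene that promotes progenitor maturation, rose from 27.4 to 783 CPM, and Aldoc, a glycolytic enzyme typical of radial glia and astrocytes, from 2.04 to 116 CPM. The neuregulin gene Nrg1 rose from 14.49 to 550 CPM and the splicing factor gene Rbfox1 from 25.2 to 726 CPM. The other 6 were Pcp4, Unc5d, Tiam2, Kcnh7, Sez6 and Lrfn5, with gof changes between 4.58 (Lrfn5) and 5.64 (Pcp4). All 12 of these increases were called in control as well.

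Pf4 and Crabp2 were among the 12 largest decreases in gof. Pf4, a chemokine of platelets and macrophages, fell from 180 to 7.41 CPM in gof and from 77.6 to 6.41 CPM in control. Summed microglia and macrophage markers, described at the end, were at 117 and 57.0 CPM in gof and 55.9 and 53.9 CPM in control. Crabp2, a retinoic acid binding protein, fell from 250 to 16.7 CPM, and Mest, an imprinted gene of growing tissue, from 688 to 67.3 CPM. Id3, a target of BMP signalling, fell from 917 to 119 CPM in gof and from 1823 to 259 CPM in control. The remainder were Ankrd33b, Osbpl7, Pbld1, Spry2, Cenpw, Rspo1, Hmga2 and Lin28b, and each of the 12 fell in control too.

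Several feedback inhibitors of the Wnt pathway rose in whole gof libraries between the ages. Of 12 measured Wnt targets, 7 rose and 0 fell in gof, with a median change of 1.36, and in control 4 of 9 rose and 1 fell, with a median of 0.81. With TMM scaling 6 rose and 0 fell in gof, and 0 of 8 rose and 2 fell in control. Notum (chromosome 11, 120653788 to 120661175, GRCm38), an enzyme that strips Wnt ligands of the lipid they need, was at 14.6 CPM in the E11.5 gof library and 49.8 CPM at E14.5, against 1.19 and 0.427 CPM in control. Wif1 (chromosome 10, 121033960 to 121100650), a secreted Wnt-binding inhibitor, was at 28.4 and 139 CPM in gof and 7.99 and 11.4 CPM in control. Both rose in gof, were called in gof only, and were higher in gof than in control at each age. Nkd1, an inhibitor inside the cell, rose from 51.6 to 167 CPM in gof, and its control values of 30.4 and 54.0 CPM did not reach 2-fold. Apcdd1 (45.1 to 156 CPM), Znrf3 (49.9 to 154 CPM) and Tnfrsf19 (55.3 to 121 CPM) rose in gof and also in control, and with TMM scaling none of these 3 passed in control and Tnfrsf19 did not pass in gof.

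Axin2 and Sp5 did not pass a change with age in whole gof libraries. Axin2, the most widely used target and a negative regulator, was at 69.0 CPM at E11.5 and 84.8 CPM at E14.5 in gof, and at 72.2 and 81.8 CPM in control. Sp5, a transcription factor gene that is a direct target, was at 85.5 and 78.4 CPM in gof and 63.7 and 37.7 CPM in control. In neuron-range cells both rose in gof and were called in gof only (as were 260 of 9837 genes, 2.64%). Axin2 rose there from 29.4 to 89.3 CPM, with 31.5 and 31.8 CPM in control, and Sp5 from 41.3 to 107 CPM, with 11.3 and 10.9 CPM in control. Ctnnb1, the beta-catenin gene, was at 232 and 291 CPM in gof. These 3' counts do not show whether a transcript came from the altered allele, because the altered stretch of the gene is not named in the labels.

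Cells with 2 or more tdTomato UMIs numbered 301 of 5877 in the E11.5 gof library (5.12%) and 1145 of 5444 at E14.5 (21.0%), and 558 (9.44%) and 1238 (17.8%) in control. Median depths were 9902 and 16573 UMIs in these gof cells, and 13332 and 14625.5 UMIs in these control cells. Deeper cells pass a fixed UMI limit more easily. After thinning every cell to 3000 UMIs, tdTomato was detected in 8.02% and 16.01% of gof cells at E11.5 and E14.5 (16.2% and 35.0% without thinning). Cells with at least 3 endothelial or immune markers, taken before the collagen and haemoglobin limits, gave 6.78% of 236 and 25% of 124 cells. Their median depths were 9538 and 23671.5 UMIs. These cells are not a clean negative group and may include mixed droplets. At E14.5, Ttr was detected in 25.8% of them and Notum in 21.8%, against 4.38% and 6.96% of thinned tissue cells. Eomes, at 4.03% against 19.8%, went the other way. The source of their tdTomato share, which at E14.5 was higher than in the tissue (25% against 16.01%), was not tested. Shares of cells with a tdTomato UMI are therefore not read as shares of cells that met the Cre. The tdTomato-positive cells are taken as a mixed population.

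In tdTomato-positive gof cells, 2236 of 9704 genes (23%) rose and 322 (3.32%) fell, and in tdTomato-positive control cells 2880 of 10032 (28.7%) rose and 334 (3.33%) fell. Of the 3214 genes called in these control cells, 1716 (53.4%) were made in gof and 429 (13.3%) missed, with 243 of 10363 genes (2.34%) called in gof only. The corresponding shares of the whole libraries were 64.3% and 5.98%, and the difference between the 2 populations was not tested. For 221 of the 429 missed genes the gof level was under 10 CPM at both ages.

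Wnt feedback genes stood higher in the tdTomato-positive gof cells than in the whole gof libraries. Nkd1 rose there from 164 to 529 CPM, Wif1 from 112 to 487 CPM, Notum from 65.0 to 173 CPM, Apcdd1 from 117 to 475 CPM and Lef1, a partner of beta-catenin, from 177 to 421 CPM. In all, 9 of 14 measured Wnt targets rose and 0 fell in gof, against 5 and 1 of 11 in control. Dkk4, a secreted antagonist, was at 1.36 and 27.4 CPM in gof and at 0 and 0.0415 CPM in control. In gof cells with no tdTomato UMI, which include cells too shallow to show one, 1 of 9 measured targets rose (Znrf3) and 2 fell. Among all measured genes 26.3% rose there and 5.45% fell. In these gof cells Sp5 fell from 53.3 to 4.90 CPM, and Wif1 from 14.2 to 5.80 CPM. Of the 5 targets called in control cells with no tdTomato UMI, 1 was made in gof and 3 were missed. Over all genes 67.2% were made and 5.99% missed. The missed targets were Lef1 and Apcdd1, which rose in control, and Ccnd1, which fell in control.

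The stretch just before the start of 2 Wnt target genes is shown because, with library totals, one target rose with age in both whole-library comparisons and the other in neither. Each run covers the 250 bases before a RefSeq start on GRCm38.p6, 5′ to 3′ on the gene's strand. Capitals mark the core of the TCF and LEF motif, searched as CTTTGA and, for the opposite strand, TCAAAG. Sp5 is read from chr2:70474673-70474922 on the plus strand and Tnfrsf19, a receptor gene, from chr14:61037988-61038237 on the minus strand at the second of its 2 listed starts.
Sp5: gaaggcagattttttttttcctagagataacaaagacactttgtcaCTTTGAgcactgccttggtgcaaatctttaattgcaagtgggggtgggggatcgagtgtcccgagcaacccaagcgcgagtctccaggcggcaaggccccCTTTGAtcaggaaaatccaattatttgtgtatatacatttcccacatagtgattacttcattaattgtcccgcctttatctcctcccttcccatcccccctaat
Tnfrsf19: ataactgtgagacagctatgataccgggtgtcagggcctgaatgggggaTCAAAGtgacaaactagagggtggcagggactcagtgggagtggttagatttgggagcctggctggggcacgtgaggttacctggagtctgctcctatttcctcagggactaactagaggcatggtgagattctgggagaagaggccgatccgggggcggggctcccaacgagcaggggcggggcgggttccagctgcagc
Sp5 held 2 matches and did not rise in whole gof libraries, and this Tnfrsf19 start held 1 match and Tnfrsf19 rose. The other listed start of Tnfrsf19 held 0, and with TMM scaling Tnfrsf19 passed in neither genotype. Of the 16 listed Wnt genes 10 had an entry, with 16 starts in all, and 4 of these starts (25%) held a match, among 13.8% of 32851 starts of all genes. The starts listed for Nkd1, Wif1, Rnf43 and Axin2 held none in this window. A match is a run of letters and was not tested as a binding site.

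The makeup of the tissue moved towards neurons in both genotypes. Each cell was scored, after thinning to 3000 UMIs, by the log2 ratio of UMIs of 8 neuronal genes to UMIs of 8 progenitor genes, and a cell at 1 or more is called neuron-range and a cell at -1 or less progenitor-range. The neuron-range share was 12.2% (95% interval 11.3 to 13.1) at E11.5 and 38.8% (37.5 to 40.2) at E14.5 in gof, and 9.01% and 33.7% in control. Among tdTomato-positive cells it was 6.71% of 283 and 41.7% of 1138 gof cells, and 4.87% of 554 and 41.1% of 1235 control cells. The E14.5 shares of tdTomato-positive cells in gof (38.8 to 44.6) and control (38.4 to 43.9) have overlapping intervals. With limits of 2000 genes and 5% mitochondrial UMIs, the E11.5 share was 5.49% in gof and 5.84% in control. Because a sum over the library mixes more neurons with changes inside cells, fewer cells of a type and less RNA per cell cannot be told apart in the whole-library values.

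**Figure D2:**
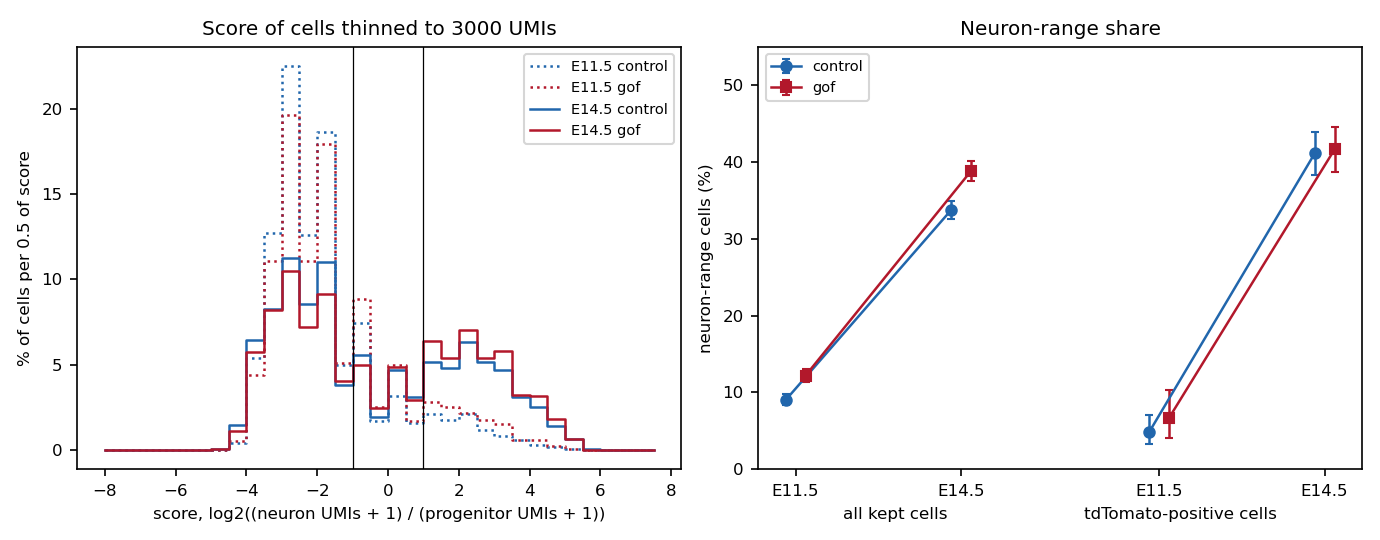
Left, distribution of the neuron score in each library, as % of cells per 0.5 score units, with vertical lines at the limits of -1 and 1; right, share of neuron-range cells with exact 95% binomial intervals for counting error. In both genotypes the share rose with age, from 12.2% to 38.8% of all gof cells and from 6.71% to 41.7% of tdTomato-positive gof cells.

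Nearly all genes of axons and synapses rose in the gof midline. Of 12 measured genes, 11 rose and 0 fell in gof (median change 2.72), and 12 of 13 rose in control (median 3.04). Gria2, an AMPA receptor subunit, rose from 22.5 to 303 CPM in gof and from 20.8 to 274 CPM in control. Grin2b, an NMDA receptor subunit, rose from 1.91 to 53.9 CPM and Snap25, of the vesicle fusion machinery, from 9.06 to 71.0 CPM. The member that was not called, Cntnap2, was at 118 and 111 CPM in gof and 120 and 200 CPM in control. Camk2b, a kinase of synapses, was counted as missed, but its gof values of 0.460 and 7.48 CPM increased below the 10 CPM limit, against 0.770 and 21.3 CPM in control.

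The list also rose within neuron-range cells. In gof neuron-range cells 2236 of 9419 genes (23.7%) rose and 545 (5.79%) fell, and 10 of 14 axon and synapse genes rose and 0 fell (median 1.80). Stmn2, a cytoskeletal regulator of growing axons, was one of the genes of the neuronal score itself and is given as a value only: 273 and 388 CPM in whole gof libraries, and 172 and 574 CPM in control.

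Projection neuron genes were also largely made, with named exceptions. Of 15 measured genes, 10 rose and 0 fell in gof (median 1.38), and 10 rose and 1 fell in control (median 1.58). Neurod2, a driver of pallial neuron differentiation, rose from 8.70 to 169 CPM in gof and from 8.23 to 107 CPM in control. Sox5, of deep-layer neurons, rose from 70.4 to 479 CPM and Bcl11b, of subcerebral neurons, from 42.1 to 180 CPM. Tbr1, a transcription factor of early-born cortical neurons and Cajal-Retzius cells, was missed: it was at 31.7 and 44.8 CPM in gof and 18.4 and 57.2 CPM in control. Pou3f2, of upper-layer neurons and their progenitors, fell in control from 37.3 to 16.2 CPM and was at 36.0 and 39.3 CPM in gof.

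Proneural and intermediate progenitor genes rose with age in part. Of 12 measured genes, 7 rose and 0 fell (median 1.17), and 8 of 11 rose in control (median 2.13). Eomes, the defining gene of intermediate progenitors, rose from 21.2 to 117 CPM in gof and from 16.3 to 140 CPM in control. Neurod1, which follows it, rose from 40.3 to 158 CPM and Neurog2, the main pallial proneural gene, from 76.0 to 186 CPM. Gadd45g, expressed in newborn neurons and also induced by stress, was at 226 and 224 CPM in gof and 107 and 471 CPM in control, and was missed. With median-of-ratios scaling 4 of the 12 rose and 1 fell in gof, and 6 of 12 rose and 1 fell in control.

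Dissociation stress genes moved beside these steps and are given as measured. Their summed level was 496 CPM at E11.5 and 708 CPM at E14.5 in gof, and 501 and 1152 CPM in control. In control 7 of 10 measured stress genes rose, and in gof 1 of 9 rose (Jun) and 1 fell (Atf3). Fos was at 53.3 and 59.4 CPM in gof and at 40.7 and 171 CPM in control. The part of this difference in Gadd45g, Btg2 (21.8 to 115 CPM in gof, 27.5 to 165 CPM in control) and other inducible genes was not tested.

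Most radial glia genes rose with age in the gof midline. In whole gof libraries 12 of 17 radial glia genes rose and 0 fell (median 1.65), and 12 of 18 rose in control (median 2.11). With TMM scaling 10 of 17 rose in gof and 11 of 18 in control. In tdTomato-positive cells 11 of 17 rose in gof, and 14 of 18 rose and 1 fell in control. Of the 15 called in those control cells, 11 were made and 3 missed (Tnc, Hopx and Vcam1), among 53.4% made and 13.3% missed over all genes. Among progenitor-range cells, where 2041 of 9233 genes (22.1%) rose and 371 (4.02%) fell in gof, 15 of 17 rose (median 2.19), and in control 14 of 18 (median 2.04), where 26.8% of all measured genes rose and 2.65% fell. Slc1a3, a glutamate transporter of radial glia, rose from 21.3 to 138 CPM in gof and from 25.3 to 151 CPM in control. Nfia rose from 399 to 1571 CPM and Nfib from 280 to 2531 CPM, and with Nfix all 3 nuclear factor I genes of the list rose in both genotypes. Bcan, a proteoglycan of glial matrix, rose from 0.412 to 25.7 CPM.

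Tnc (chromosome 4, 63959785 to 64047015), a matrix glycoprotein of radial glia, stayed under the 10 CPM minimum in the whole gof libraries and was missed. It was at 0.339 and 6.78 CPM in gof and at 0.305 and 54.1 CPM in control. In progenitor-range cells it rose in both genotypes, from 0.349 to 11.4 CPM in gof and from 0.357 to 83.1 CPM in control. Vcam1, an adhesion molecule of radial glia, rose from 10.98 to 36.6 CPM in gof and from 8.74 to 73.2 CPM in control. It was missed in tdTomato-positive cells and made in tdTomato-positive progenitor-range cells, a group chosen after seeing the data. Htra1 (chromosome 7, 130936111 to 130985660), a secreted protease, had the largest shortfall against control among genes that reached 50 CPM in any library. It was at 1.94 and 8.05 CPM in gof and at 0.770 and 80.6 CPM in control. Fabp7, a fatty acid binding protein of radial glia, did not pass in either genotype, at 900 and 1225 CPM in gof and 814 and 629 CPM in control. In cells with no tdTomato UMI the shortfalls were also present, with Tnc at 0.217 and 7.47 CPM in gof and 0.332 and 59.1 CPM in control, and Htra1 at 1.18 and 3.61 CPM and 0.708 and 66.3 CPM.

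**Figure D3:**
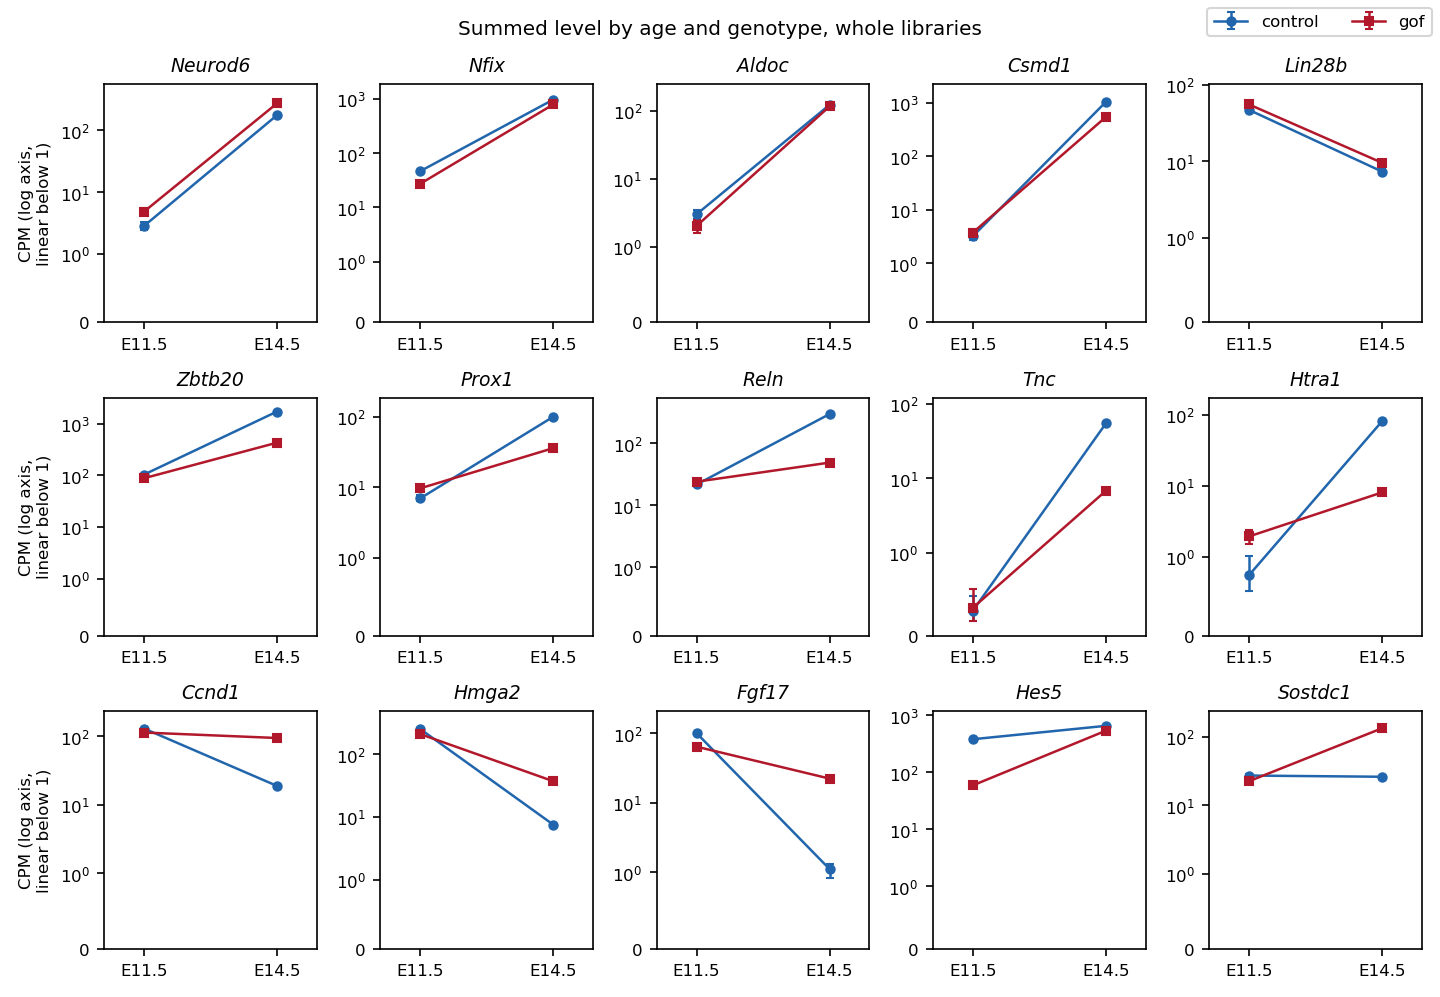
Summed level in CPM of 15 genes at E11.5 and E14.5 in control (blue circles) and gof (red squares) whole libraries, on a log axis that is linear below 1 CPM; bars are exact 95% Poisson intervals for counting error, and each point is 1 library. The top row shows steps made in gof (Neurod6 to Lin28b), Zbtb20 to Htra1 end lower in gof, and Ccnd1, Hmga2 and Fgf17 end higher in gof.

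Lin28b and Hmga2 fell in both genotypes, to a higher end level in gof for Hmga2. Lin28b, an RNA-binding regulator of developmental timing, fell from 55.1 to 9.51 CPM in gof and from 46.8 to 7.29 CPM in control. Hmga2 (chromosome 10, 120361275 to 120476469), a chromatin protein of early stem cells and a target repressed by let-7, fell from 207 to 36.8 CPM in gof and from 248 to 7.48 CPM in control, so the step was made but ended 2.42 log2 units short of control. Its level in tdTomato-positive cells was 236 and 42.0 CPM in gof and 209 and 10.96 CPM in control, and in cells with no tdTomato UMI 207 and 34.0 CPM and 258 and 6.58 CPM. Of 8 measured timing genes, 1 rose and 3 fell in gof and 0 rose and 3 fell in control. The riser, Igf2bp3, went from 82.3 to 206 CPM in gof, and with TMM scaling it did not pass.

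Ccnd1 (chromosome 7, 144929931 to 144939925), the D-type cyclin that is also a Wnt target, fell in control and did not fall in gof. It was at 114 and 94.8 CPM in gof and went from 130 to 18.9 CPM in control. In tdTomato-positive cells it was at 66.4 and 132 CPM in gof and 78.6 and 15.9 CPM in control. In progenitor-range cells it was at 119 and 141 CPM in gof and 136 and 27.0 CPM in control, and in cells with no tdTomato UMI at 124 and 79.9 CPM and 146 and 19.7 CPM. So the fall was missed in each of these 3 populations as well as in the whole library. In tdTomato-positive progenitor-range cells, chosen after seeing the data, Ccnd1 was called in opposite directions in gof and control.

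In whole libraries few other cell cycle genes passed. Of 18 S phase genes, 0 rose and 1 fell in gof (Rrm2, 271 to 133 CPM; median -0.04), and 0 rose and 2 fell in control (median -0.59). With TMM scaling 2 fell in gof and 10 in control. In tdTomato-positive cells 1 of 17 fell in gof and 8 of 18 in control, but 7 of those 8 gof values were too close to the limit to count as missed and the other was made. With TMM scaling 4 of 18 S phase genes fell in tdTomato-positive gof cells and 15 of 18 in control, and of 18 genes of G2 and mitosis 3 and 12 fell. Of 18 genes of G2 and mitosis, 1 rose in gof (Mki67, 47.2 to 98.9 CPM, which did not pass with TMM scaling) and 3 fell in control. In neuron-range cells, where 492 of 9486 genes (5.19%) fell and 2373 (25%) rose in control, 10 of 16 measured genes of G2 and mitosis fell in control. In gof neuron-range cells 0 of 18 fell and 1 rose (Mki67). All 10 were missed there, among 318 missed of 2865 genes called in control (11.1%). Birc5, a regulator of chromosome segregation, was one of them, at 71.7 and 57.0 CPM in gof neuron-range cells and 62.7 and 15.6 CPM in control. Among inhibitors of the cycle Cdkn1a rose from 57.2 to 170 CPM in gof, with 49.97 and 64.4 CPM in control. In tdTomato-positive cells Cdkn1a rose in both genotypes, from 95.7 to 580 CPM in gof and from 48.9 to 214 CPM in control. In neuron-range cells it was at 355 and 287 CPM in gof and fell from 559 to 127 CPM in control.

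Notch pathway genes differed mainly in Hes5, an effector of Notch signalling in progenitors. Hes5 (chromosome 4, 154960923 to 154962371) rose from 59.1 to 539 CPM in gof and was at 382 and 656 CPM in control. The values at E14.5 were close, and the difference lay in the E11.5 libraries. The same held in gof cells with no tdTomato UMI, at 57.7 and 597 CPM, against 399 and 686 CPM in control. Of 13 measured Notch genes, 3 rose (Notch1, Hes5, Hey2) and 2 fell (Notch2, Hes1) in gof, and their median of 0.27 was -0.08 with TMM scaling. The control median of 0.13 was -0.39 with TMM scaling.

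Several other genes had an E11.5 gof level unlike the E11.5 control level in cells with no tdTomato UMI. Osbpl7, a lipid-binding protein gene, was at 242 CPM there in gof and 26.8 CPM in control, and fell in both genotypes. Pdgfrl was at 116 and 29.5 CPM and Arrdc3, an arrestin family gene, at 31.9 and 11.2 CPM. For these 3 genes gof and control differed by a larger ratio at E11.5 than at E14.5, and whether that belongs to the genotype or to the pool cannot be told apart.

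Zbtb20 and Prox1 rose in the gof midline to lower levels than in control. Zbtb20 (chromosome 16, 42875881 to 43642602), a transcription factor that defines the hippocampal field, was at 87.8 and 429 CPM in gof and at 103 and 1719.5 CPM in control. Prox1 (chromosome 1, 190118035 to 190170714), of dentate gyrus granule neurons, was at 9.67 and 36.0 CPM in gof and 6.98 and 100.4 CPM in control. Both rose in both genotypes, and the E11.5 levels of gof and control were similar. Lhx9, of the medial pallium, was missed, at 42.4 and 39.3 CPM in gof and 33.2 and 126 CPM in control. In cells with no tdTomato UMI Zbtb20 was at 84.3 and 399 CPM in gof and 94.6 and 1707 CPM in control, and Prox1 at 9.65 and 24.1 CPM and 6.94 and 98.3 CPM.

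Beyond Lhx9, no pallial gene of the list was counted as missed in whole libraries. For 1 gene called in control, the gof change was too near the limit to count as made or missed. Lhx2, which marks cortex as opposed to hem, rose from 236 to 665 CPM in gof, with control values of 303 and 592 CPM just under 2-fold. Emx1 rose in both genotypes, and Emx2, Pax6, Dmrta2 and Gli3 passed in neither. In all 5 of 14 genes of the list rose and 1 fell in gof (Dmrta1), and 6 rose and 1 fell in control. With TMM scaling 4 rose and 2 fell in each genotype.

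FGF ligands and the genes they induce fell in both genotypes. Of 12 measured ligands and feedback genes, 0 rose and 9 fell in gof (median -1.44) and 0 rose and 9 fell in control (median -1.83). Fgf8, the founding ligand of the anterior centre, fell from 35.3 to 2.09 CPM in gof and from 43.3 to 0.573 CPM in control. Spry2, a feedback inhibitor, fell from 146 to 19.3 CPM and Dusp6, a phosphatase induced by FGF, from 38.6 to 7.51 CPM in gof. Fgf17 (chromosome 14, 70636203 to 70642268), a relative of Fgf8, fell from 64.3 to 22.3 CPM in gof and from 100.5 to 1.11 CPM in control.

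Fgf17 remained in cells with the reporter. In tdTomato-positive cells it was at 64.7 and 76.3 CPM in gof and fell from 63.8 to 2.58 CPM in control. In cells with no tdTomato UMI it fell in gof from 66.2 to 1.13 CPM and in control from 109 to 0.513 CPM. In tdTomato-positive progenitor-range cells, chosen after seeing the data, Fgf17 was called in opposite directions in gof and control. Rostral midline and septal markers, such as Six3 and Zic genes, summed to 837 and 881 CPM in tdTomato-positive gof cells and 645 and 397 CPM in control. In the whole libraries they summed to 593 and 298 CPM in gof and 511 and 194 CPM in control. Their part in the Fgf17 values was not tested.

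BMP response genes fell in part. Id1 fell from 77.4 to 36.7 CPM, Bambi, a decoy receptor, from 36.0 to 13.8 CPM and Id3 as above, while Id4, of cortical progenitors, rose from 115 to 339 CPM. The same 3 fell in control, where Id4 and Smad7 rose. The gof median of 0.35 over 8 genes was 0.01 with TMM scaling and -0.03 with median-of-ratios scaling. The control median of -0.33 was -0.84 and -0.88 in the same order.

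Hem genes fell in the gof midline. Of 12 measured hem and roof plate genes, 0 rose and 9 fell in gof (median -1.70), and 1 rose and 6 fell in control (median -1.001). With TMM scaling 9 fell in gof and 10 in control, with medians of -2.04 and -1.49. Wnt3a, the Wnt ligand that defines the hem, fell from 15.5 to 1.93 CPM in gof and was at 17.6 and 9.52 CPM in control. Rspo2, a secreted enhancer of Wnt signalling, fell from 160 to 37.3 CPM, with 244 and 165 CPM in control, and Msx1, a BMP-induced transcription factor, from 47.7 to 7.35 CPM, with 40.8 and 26.9 CPM in control. These 3 were called in gof only, but with TMM scaling all 3 passed in control too, and in cells with no tdTomato UMI Rspo2 and Msx1 fell in both genotypes. Lmx1a, which specifies the hem and drives the Cre, was at 21.4 and 19.9 CPM in gof and 32.7 and 52.9 CPM in control and passed in neither.

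The ligands did not all follow. Wnt8b fell in both genotypes, from 112 to 29.4 CPM in gof and 139 to 45.0 CPM in control, and Bmp4 fell in both, from 40.4 to 13.5 CPM and 29.6 to 6.54 CPM. Bmp7 fell in control from 27.5 to 11.6 CPM and was at 25.8 and 24.8 CPM in gof. Wnt5a rose in control from 19.0 to 69.4 CPM and was at 16.1 and 24.0 CPM in gof. In tdTomato-positive cells, Wnt5a rose in both, from 16.9 to 52.9 CPM in gof and 35.2 to 150.4 CPM in control.

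In tdTomato-positive cells 1 of 12 hem genes rose and 7 fell in gof, and 3 of 13 rose and 3 fell in control. Wnt3a fell in gof from 31.8 to 5.39 CPM, with 52.8 and 37.2 CPM in control. Rspo2 fell from 311 to 123 CPM, with 644 and 639.98 CPM in control. Rspo3 passed in neither, at 804 and 717 CPM in gof and 1208 and 1343 CPM in control.

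**Figure D4:**
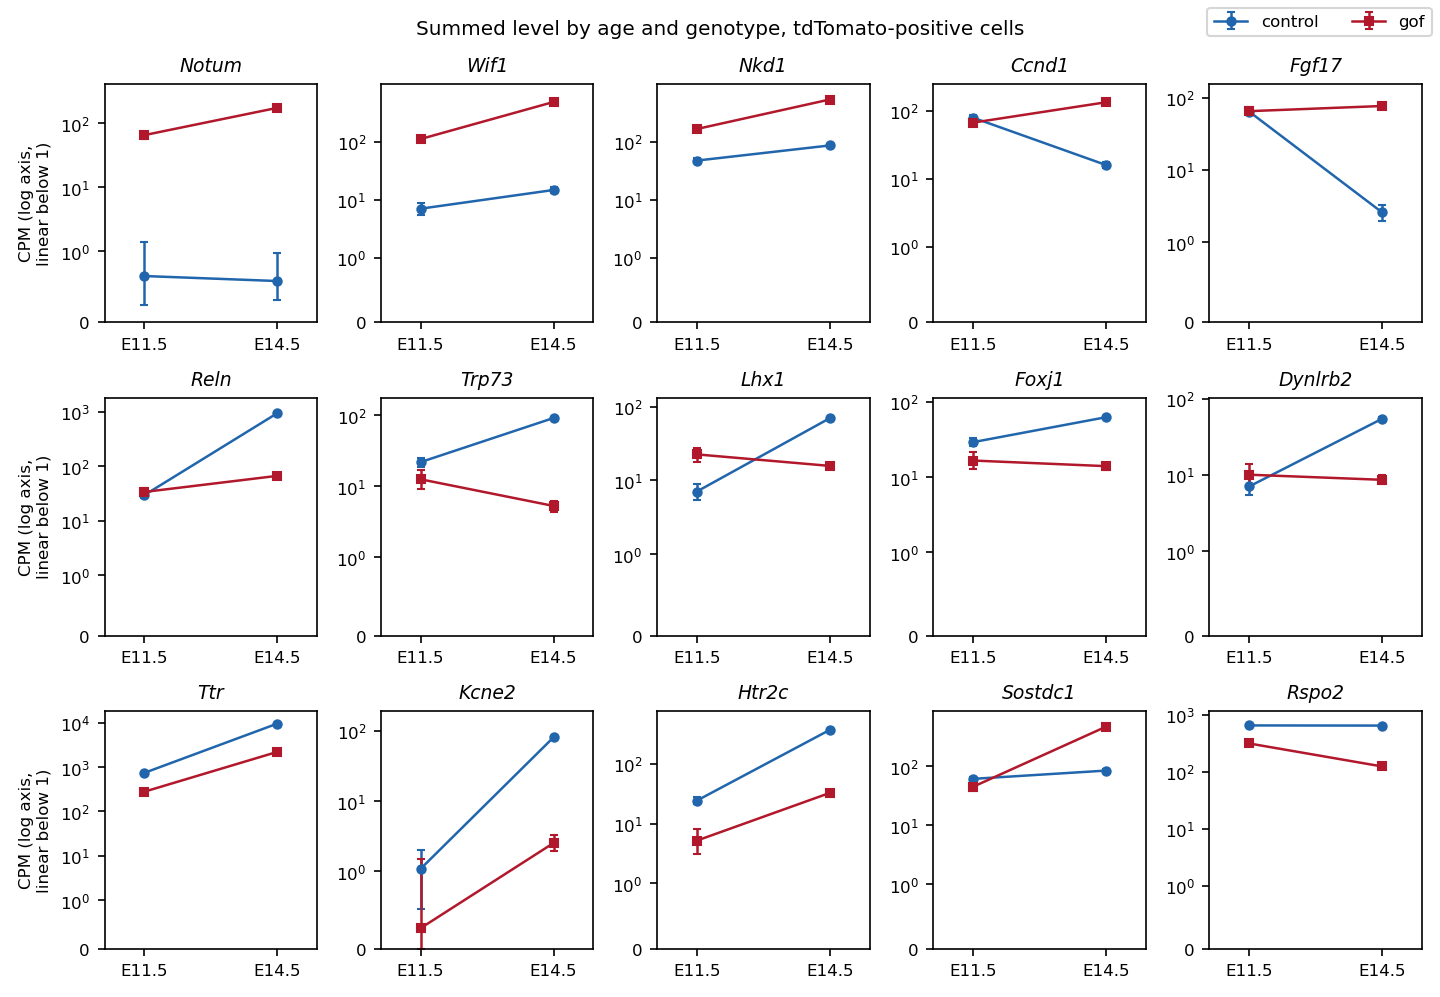
Summed level in CPM of 15 genes at E11.5 and E14.5 in tdTomato-positive control (blue circles) and gof (red squares) cells, on a log axis that is linear below 1 CPM; bars are exact 95% Poisson intervals for counting error. Notum, Wif1 and Nkd1 are higher in gof at both ages, Ccnd1 and Fgf17 separate at E14.5, and Reln, Trp73, Lhx1, Foxj1 and Dynlrb2 pass 2-fold increase in control only.

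Cajal-Retzius genes called in control were mostly missed in the whole gof libraries. In whole libraries 5 of the 6 called in control were missed in gof, and over 11 measured genes 0 rose and 4 fell in gof (median -0.27), against 5 and 1 in control (median 0.63; with TMM scaling 2 and 2, and still 0 and 4 in gof). Reln, the secreted glycoprotein of Cajal-Retzius cells, was at 24.1 and 49.1 CPM in gof and rose from 21.7 to 299 CPM in control. The gof ratio is over 2, but the change falls just short of the limit once 1 CPM is added. Trp73, the transcription factor of hem-derived Cajal-Retzius cells, fell from 16.3 to 2.02 CPM in gof and was at 16.1 and 25.5 CPM in control. Lhx1 fell from 27.9 to 5.06 CPM and Ebf1 from 54.8 to 15.1 CPM in gof, with control values of 16.6 and 19.5 CPM and 29.7 and 36.0 CPM. Trp73, Lhx1 and Ebf1 were called in gof only. Nhlh2, Calb2, Ebf3 and Cacna2d2 were missed along with Reln, with gof changes between -0.27 and 0.16.

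At E11.5 each of these 8 genes was at a higher CPM in gof than in control, for Trp73 by very little. At E14.5 each was lower in gof. The 8 genes were picked by a gof change at least 1 log2 unit below the control change, which favours such a pattern. Lhx5 fell in both genotypes, from 28.8 to 1.08 CPM in gof and 26.2 to 8.495 CPM in control. In tdTomato-positive cells 8 of 11 measured genes rose and 0 fell in control, and 2 rose and 2 fell in gof. Reln was at 34.0 and 67.1 CPM in gof and rose from 29.8 to 949 CPM in control. Trp73 fell from 12.5 to 5.27 CPM in gof and rose from 21.8 to 91.5 CPM in control, which made it one of 5 genes of these cells (0.156%) called in opposite directions. The risers in gof were Ebf3, from 17.4 to 68.2 CPM, and Calb2, from 8.70 to 35.3 CPM, which are also expressed by other neurons. With limits of 2000 genes and 5% mitochondrial UMIs, the whole-library change of Reln in gof was 1.46, which passes, so Reln was then not missed. In neuron-range cells 5 of the 7 Cajal-Retzius genes called in control were made (60% over all genes called there). These were Trp73, Lhx1, Lhx5, Ebf1 and Ebf2, which fell in both genotypes, and Reln was missed, at 108 and 111 CPM in gof and 171 and 797 CPM in control. In cells with no tdTomato UMI, 4 of 6 were made (Trp73, Lhx1, Lhx5 and Ebf2) and Reln and Nhlh2 were missed, among 67.2% made and 5.99% missed over all genes.

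Choroid plexus genes were made in part. Ttr, the thyroxine carrier that choroid plexus epithelium secretes in bulk, rose from 131 to 627 CPM in gof and from 262 to 2525 CPM in control. In tdTomato-positive cells it rose from 279 to 2202 CPM and from 741 to 9559.5 CPM. Kcne2, a potassium channel subunit of the mature epithelium, was at 0.242 and 0.706 CPM in gof and 0.337 and 20.5 CPM in control, and Htr2c, the serotonin receptor of this epithelium, at 3.49 and 9.38 CPM and 6.27 and 92.5 CPM. Enpp2, a secreted lysophospholipase, was at 6.79 and 5.72 CPM in gof and 2.65 and 15.4 CPM in control. These 3 were missed in whole libraries. In tdTomato-positive cells Htr2c rose in both genotypes, from 5.17 to 32.6 CPM in gof and 24.2 to 372 CPM in control, as did Enpp2, from 3.81 to 10.8 CPM and 3.91 to 40.04 CPM. There Kcne2, Kcnj13, Slc4a5 and Car12 were missed. In tdTomato-positive progenitor-range cells, chosen after seeing the data, 7 of the 11 choroid plexus genes called in control were made (45.3% over all genes) and 3 missed, Kcne2, Cldn1 and Slc4a5 (15.6%). Otx2, needed for choroid plexus development, fell in both genotypes.

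Sostdc1 (chromosome 12, 36314139 to 36318452), a secreted antagonist of Wnt and BMP ligands, rose in whole gof libraries and was not called in control. It rose from 22.5 to 134 CPM in gof and was at 27.2 and 26.1 CPM in control. In tdTomato-positive cells it rose from 44.6 to 467 CPM in gof, with 60.8 and 84.0 CPM in control, and in gof neuron-range cells from 1.84 to 187 CPM, with 3.37 and 6.15 CPM in control. In tdTomato-positive progenitor-range cells it rose in both genotypes, from 44.9 to 257 CPM in gof and from 64.9 to 137 CPM in control. Kcne2, which is on the same list, was at 0.272 and 2.53 CPM in tdTomato-positive gof cells. Over the list, 2 of 6 measured genes rose and 1 fell in gof, with a median of 0.17 that was -0.17 with TMM scaling, and 4 rose and 2 fell of 9 in control, with a median of 0.11 that was -0.39 with TMM scaling. In tdTomato-positive cells 5 of 8 rose in gof and 7 of 12 in control.

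In whole libraries and in all tdTomato-positive cells together, no gene of the multiciliation list was called higher in gof. Choroid plexus and ependymal cells carry many motile cilia, and Cajal-Retzius cells express some of the same regulators. In whole gof libraries 0 of 6 measured genes rose and 3 fell (Foxj1, Gmnc, Dynlrb2), and 2 of 6 rose in control. Dynlrb2 (chromosome 8, 116504974 to 116515915), a dynein light chain, fell from 10.6 to 2.52 CPM in gof and rose from 7.17 to 15.8 CPM in control. It was one of 2 genes called in opposite directions in whole libraries (0.0626% of those called in control), the other being Tpm3-rs7, and with TMM scaling its control change did not pass. Foxj1, the master regulator of motile cilia, fell from 13.7 to 5.99 CPM, with 13.9 and 20.6 CPM in control.

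In tdTomato-positive cells 11 of 14 measured multiciliation genes rose in control (6 of 13 with TMM scaling) and 0 of 6 in gof. Foxj1 was at 16.6 and 13.98 CPM in gof and rose from 29.1 to 62.5 CPM in control. Mcidas, which starts centriole amplification, was at 7.07 and 1.99 CPM in gof and rose from 15.3 to 32.4 CPM in control. Deup1, Pifo, Rsph1, Fam183b and Dynlrb2 were missed too. Rfx3, a transcription factor of cilia in general, was at 153 and 261 CPM in gof and rose from 132 to 324 CPM in control, too near the limit to be counted as missed. In tdTomato-positive progenitor-range cells, a group chosen after seeing the data, 4 of the 11 multiciliation genes called in control were made (Dynlrb2, Cfap126, Pifo and Fam183b) and 3 missed (Mcidas, Deup1 and Rsph1). Over all genes called in these control cells 45.3% were made and 15.6% missed. Dynlrb2 rose there in both genotypes, from 5.99 to 15.9 CPM in gof and from 6.14 to 70.1 CPM in control. Among all progenitor-range cells, 1 of the 5 called in control was made (Myb) and 4 were missed (Foxj1, Dynlrb2, Cfap126 and Pifo). Over all genes called in control progenitor-range cells 56.7% were made and 8.71% missed. Gmnc and Rfx2 were called in gof only in that range. In neuron-range cells 6 of the 9 called in control were made and 0 missed, among 60% made and 11.1% missed over all genes called there. Dynlrb2 fell in neuron-range cells of both genotypes, from 33.1 to 0.498 CPM in gof and from 32.7 to 6.12 CPM in control.

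**Figure D5:**
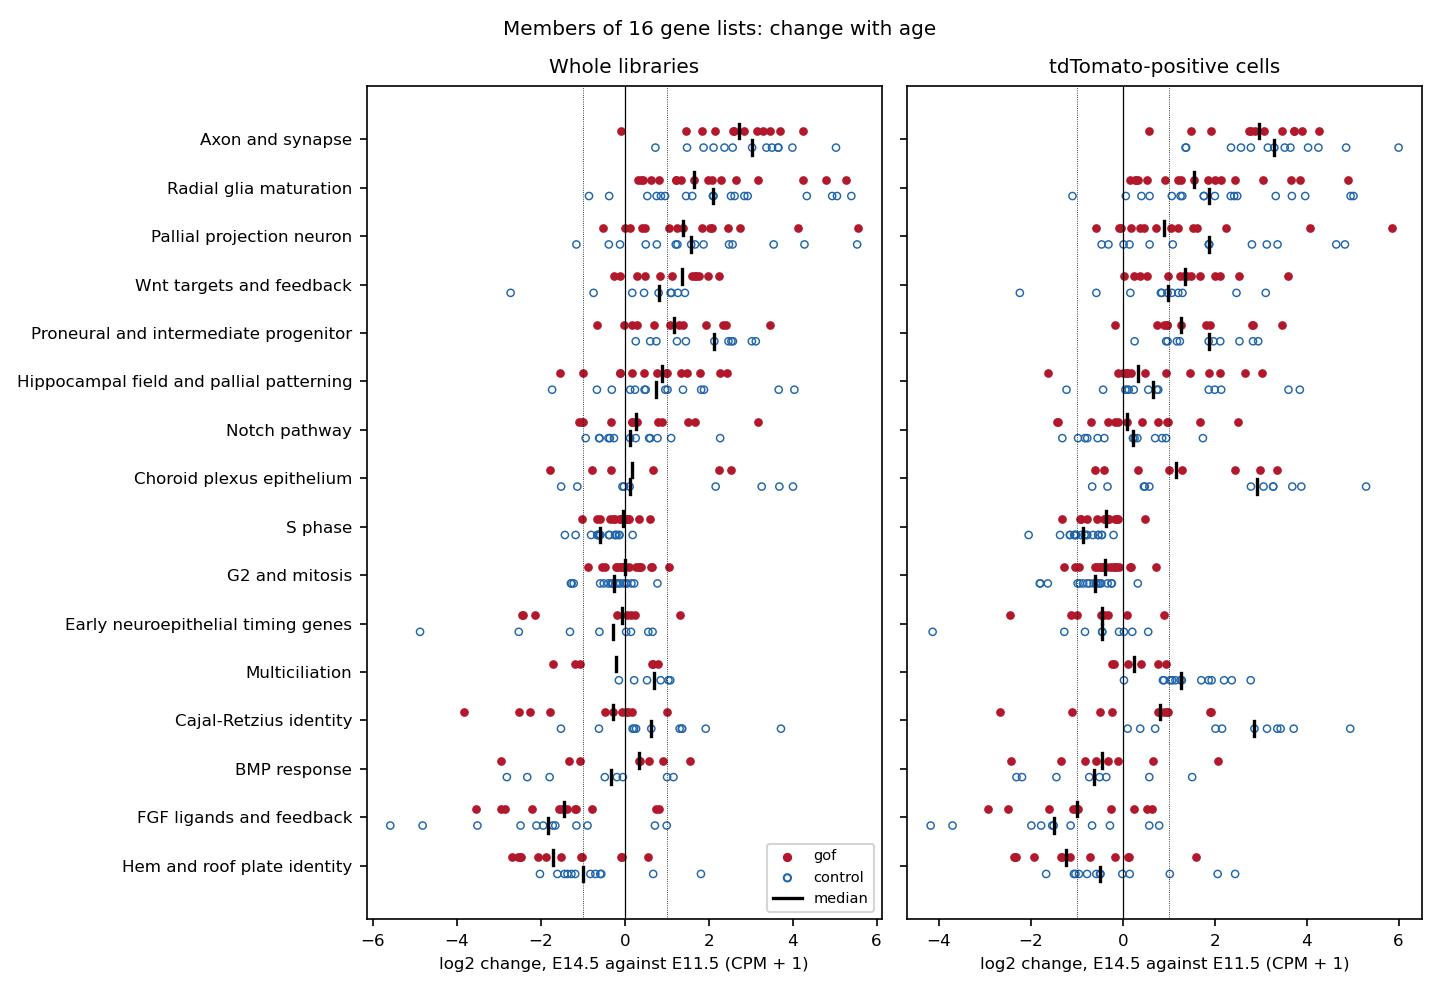
Log2 change from E11.5 to E14.5 of the measured members of 16 gene lists in gof (filled red) and control (open blue), for whole libraries (left) and tdTomato-positive cells (right); black ticks are medians and dotted lines 2-fold changes. Axon, radial glia and projection neuron lists lie to the right in both genotypes, and in tdTomato-positive cells the Cajal-Retzius, choroid plexus and multiciliation medians of gof (0.82, 1.16 and 0.25) lie left of those of control (2.86, 2.93 and 1.27).

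Beyond the lists, transcripts named for their large change or for their difference from control were gained in gof cells with the reporter. Cryba2, a crystallin gene (chromosome 1, 74889934 to 74893143), had 0 UMIs in tdTomato-positive gof cells at E11.5 and was at 58.7 CPM at E14.5, at least 72.0-fold higher than a floor of 3 counts over the E11.5 group. It was at 0.217 and 0.0831 CPM in tdTomato-positive control cells. Chodl (chromosome 16, 78930948 to 78951733), a membrane lectin gene of some neurons, rose from 1.36 to 81.4 CPM in gof and was at 1.85 and 6.11 CPM in control. Asic2, an acid-sensing ion channel, rose in tdTomato-positive cells from 29.9 to 904 CPM in gof and from 30.8 to 129 CPM in control. Prkcb, a protein kinase C, rose there from 19.0 to 231 CPM in gof and from 10.2 to 23.1 CPM in control.

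These gains lay mostly in cells with the reporter. With no tdTomato UMI, Cryba2 was at 0.341 and 0.585 CPM in gof, Chodl at 1.18 and 4.57 CPM, Asic2 at 9.92 and 24.8 CPM and Prkcb at 10.9 and 14.3 CPM. In neuron-range gof cells Asic2 rose from 5.21 to 485 CPM, with 6.73 and 29.0 CPM in control, and Chodl from 3.06 to 52.2 CPM, with 1.53 and 2.46 CPM in control. Camk2n1, an inhibitor of CaM kinase, was another, at 32.6 and 169 CPM in tdTomato-positive gof cells and 18.5 and 19.6 CPM in control.

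Tex15 and Tagln2 were held where control lost them. Tex15, known from meiosis, was at 43.8 and 59.2 CPM in gof and fell from 25.2 to 7.68 CPM in control. Tagln2, an actin-binding protein, was at 55.6 and 64.5 CPM in gof and fell from 53.7 to 16.1 CPM in control. Dlgap1, a postsynaptic scaffold, was at 41.1 and 52.2 CPM in gof and rose from 14.47 to 90.3 CPM in control.

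Markers of other cells were sparser at E14.5 in gof. Summed endothelial markers were 159 and 57.7 CPM at E11.5 and E14.5, microglia and macrophage markers 117 and 57.0 CPM, mesenchymal markers 86.4 and 39.1 CPM, erythroid markers 693 and 131 CPM and diencephalic markers 194 and 74.1 CPM. The control sums were 63.1 and 37.3, 55.9 and 53.9, 60.2 and 50.6, 354 and 67.8, and 180 and 60.1 CPM in the same order. Of the defining genes, Cldn5 of endothelium was at 7.56 and 7.65 CPM in gof and C1qa of microglia at 5.94 and 5.96 CPM, and no marker of these 5 lists was at 0 in either gof library. Gad1, of GABAergic neurons, was at 2.57 and 9.82 CPM in gof, and Gad2 at 1.89 and 1.996 CPM. The part of these cells in the falls of Pf4 and other genes was not tested.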

How the data were processed

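Single-cell libraries were made from dissociated tissue with 10x Chromium 3' v3.1 chemistry, about 14400 cells loaded and 9000 targeted. For each library the authors deposited unnormalised UMI counts, 1 value per gene and barcode, and the submitters' processing notes name Cell Ranger 7.1.0 and mm10. The matrices have 21937 features and at least 500 UMIs per barcode. Ages follow the series text, since the titles shorten them to E11 and E14.

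The members and the gene lists were chosen with earlier results of these data known. Counts of kept cells were summed per library, and also over tdTomato-positive cells, over cells with no tdTomato UMI and over progenitor-range and neuron-range cells and, added after seeing the data, tdTomato-positive progenitor-range cells. Sums were scaled to CPM with a pseudocount of 1 CPM, with exact Poisson and Clopper-Pearson 95% intervals, in Python 3.11.15 with numpy 2.4.6 and scipy 1.17.1, with seed 1. The calling rule was run on simulated counts that held counting error only, so that run cannot show how calls vary between pools. Named genes were the 12 highest and 12 lowest gof changes and the 10 largest differences from control in each direction among genes of 50 CPM or more, the 6 highest and 6 lowest in tdTomato-positive cells, 3 members at either end of every list, and preset genes. Tpm3-rs7, Armc3, Ezh1, Hist1h2ap, Stmn2 and other list members fall outside that rule and were named after their values were seen. Scrublet's own threshold called 2 doublets in each E11.5 library, where it failed, and 309 in control and 348 in gof at E14.5. No doublets were removed. Ambient RNA was not removed. Alternatives changed filters, doublets, thinning, scaling (edgeR 4.0.16 for TMM), the CPM minimum, the pseudocount and the fold limit. The 67 features with a repeated symbol were kept apart by gene ID. Gene positions come from GENCODE M21 and sequences from RefSeq.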

Additional observations from a re-analysis of the deposited data

Results flagged for a closer look

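Single genes called in opposite directions in the 2 genotypes are listed here for whole libraries and for all tdTomato-positive cells. Other populations also held such genes, not listed in full. These were 7 of 2733 genes called in control in tdTomato-positive progenitor-range cells, Ccnd1 and Fgf17 among them. In neuron-range cells they were 6 of 2865, and in progenitor-range cells 2 of 2777. With 1 library per age and genotype, these differences were not tested.

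In whole libraries Dynlrb2 changed by -1.72 in gof and 1.04 in control (log2, E14.5 against E11.5). Tpm3-rs7 changed by 3.10 in gof and -1.78 in control. Its levels were 3.42 and 36.9 CPM in gof and 38.6 and 10.5 CPM in control. It is a near copy of Tpm3, so its counts are uncertain.

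In tdTomato-positive cells Trp73 changed by -1.11 in gof and 2.02 in control, and Armc3, a gene of cilia, by -1.18 and 1.23. Ezh1, a histone methyltransferase gene, changed by -1.16 in gof and 1.10 in control. Hist1h2ap, a histone gene with near-identical copies and uncertain counts, changed by 1.26 in gof and -1.61 in control. Tpm3-rs7 changed there by 3.00 in gof and -1.86 in control.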

How the results depend on the processing

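Each group is 1 pooled library, so variation between pools is unknown, and depth limits weakly expressed genes. No paired analysis was possible because each group holds a single library. Across other filters, doublet removal, thinning, scalings, minimums, pseudocounts and fold limits, 0 of 1764 named-gene values in gof were counted as reversed. Only genes called in whole gof libraries could be counted so, and the 1764 also include genes that were not called. Other minimums and fold limits leave the change itself as it was, so those values could not reverse. With TMM scaling 1328 genes rose and 773 fell in gof, 1184 and 966 in control, 1281 and 766 in tdTomato-positive gof cells, and 1338 steps were made. Median-of-ratios scaling gave 1254 and 830, 1112 and 1044, 1221 and 817, and 1338. A minimum of 50 CPM, with fewer genes measured, gave 1220 and 225, 1302 and 171, 1017 and 190, with 1003 steps made, 60 missed, 0 opposite and 51 in gof only. A pseudocount of 10 CPM gave 1352 and 265, 1533 and 189, 1275 and 210, with 1108 made, 65 missed, 1 opposite and 62 in gof only. A limit of 1.5-fold gave 4510 and 841, 4902 and 766, 4133 and 786, with 4190 made and 15 opposite. With no minimum 827 genes fell in gof, 485 in control and 616 in tdTomato-positive gof cells, with 339 missed, 7 opposite and 346 in gof only. Thinning to 3000 UMIs left 1 opposite gene.

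The neuron-range share at E11.5 and E14.5 in gof was 6.84% and 27.0% with limits of 2 and -2, 18.9% and 46.6% with a single limit of 0, and 13.95% and 40.3% without thinning. In control it was 5.14% and 23.8%, and 13.7% and 41.5%, under the first 2 of these. With 2000 genes and 5% mitochondrial UMIs the E11.5 shares were 5.49% in gof and 5.84% in control, and with collagen and haemoglobin cells kept 9.78% and 7.96%. The cause of these shifts was not tested.

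Cells with no tdTomato UMI were examined as an alternative chosen after seeing the data. In gof cells of this kind, 8 of the named genes called in whole gof libraries turned. Notum changed by -1.16, Wif1 by -1.16, Sostdc1 by -1.22 and Cdkn1a by -1.80. Ttr changed by -0.92, Rnf43 by -0.36, Camk2n1 by -0.082 and Apcdd1 by -0.0076. Leaving out cells with 5 or more UMIs of endothelial, mural or immune markers, or the highest doublet scores, kept every count over all genes within 1.5-fold.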

Other observations

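In tdTomato-positive cells Gad1, the enzyme that makes GABA, rose from 9.79 to 30.4 CPM in gof and was at 0.434 and 1.29 CPM in control. Gad2 was at 2.45 and 0.581 CPM in gof, and Dlx2, of the ventral telencephalon, at 1.09 and 0.249 CPM.

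Genes of glycolysis and hypoxia moved little. Of 15 measured genes in whole gof libraries, 1 rose (Aldoc) and 0 fell, and in control 2 rose and 2 fell. Hk2, the first enzyme of glycolysis, was at 64.4 and 49.96 CPM in gof and fell from 70.3 to 29.9 CPM in control. Gapdh was at 2363 and 1469.7 CPM in gof and fell from 2671 to 1245 CPM in control. In tdTomato-positive cells Cdkn1c, an inhibitor of the cell cycle, rose from 182 to 476 CPM in gof and was at 149 and 206 CPM in control.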
